A study of Mus musculus with 6 samples.

Results

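Tanycytes are elongated glial cells that line the floor and lower walls of the third ventricle, where their processes reach into the arcuate nucleus (ARC) and the median eminence. The values below are those of 9 genes that mark these cells or handle thyroid hormone in them, *Rax*, *Gpr50*, *Vim*, *Nes*, *Lhx2*, *Dio2*, *Crym*, *Col23a1* and *Scn7a*. The genes were chosen by symbol from what is known of the cell type, with earlier results of these data known. The same holds for the gene lists below, so counts set beside the share over all tested genes are descriptions. All 9 genes were among the 24015 gene symbols counted in the series. All 9 were also tested, among 15236 symbols whose counts were high enough for edgeR's default filter.

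RNA was sequenced from ARC dissected from adult female mice. Their mixed background is CD-1, 129P2 and C57BL/6 in the labels, while the study's methods leave C57BL/6 out for this line. The 3 controls were Esr1fl/fl and the 3 mutants Esr1fl/fl;Nkx2-1-Cre, so both genotypes carried the floxed alleles of *Esr1*, the gene for estrogen receptor alpha, and Cre was present in the mutants alone. Cre was expressed from the *Nkx2-1* promoter, which is active in the developing ventral hypothalamus and is limited neither to tanycytes nor to neurons. Reads assigned to genes numbered 14747944, 17877137 and 14046798 in control replicates 1, 2 and 3 and 11792440, 15741681 and 15166356 in the mutant replicates. The study describes 3 females of each genotype, and p-values measure the spread between these libraries.

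Tanycytes share the intermediate filaments and transcription factors of radial glia, from which they descend. They take up thyroxine and convert it to the active hormone triiodothyronine with type 2 deiodinase, and they touch capillaries of the median eminence, the portal vessels and the pars tuberalis of the pituitary, whose thyrotropin acts on them. They also take part in seasonal and metabolic control of the neurons of the ARC and of the release of hypothalamic hormones.

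Levels are given in CPM, counts per 1000000 counts of a library after TMM normalization, with the samples of a genotype always in the order of replicates 1, 2 and 3. Fold changes are mutant over control on the log2 scale, each with its standard error (SE). Tests are edgeR's quasi-likelihood test with p-values adjusted by the Benjamini-Hochberg method over all tested genes, and the threshold was an adjusted p-value of 0.05. For a single gene, the smallest p-value that an exact two-sided permutation test over 3 and 3 samples allows is 0.1. The labels held for the deleted gene. *Esr1* was at 64.4, 57.4 and 48.4 CPM for controls against 11.8, 9.54 and 7.05 CPM for mutants, with a log2 fold change of -2.59 (SE 0.18, adjusted *p* = 0.000884, edgeR). *Nkx2-1*, whose promoter drives Cre, was at 74.2, 74.8 and 81.5 CPM for controls against 77.7, 77.7 and 61.0 CPM for mutants (log2 fold change -0.091, adjusted *p* = 0.864, edgeR).

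One library stood apart in genes of the tissue below the ventricle. Control replicate 2 held almost no transcripts of the pars tuberalis, the part of the pituitary that wraps the median eminence. The 9 pituitary and pars tuberalis markers summed to 772, 6.51 and 508 CPM for controls against 597, 533 and 471 CPM for mutants, so control replicate 2 was at 6.51 CPM where no other sample was under 471 CPM. *Cga*, the hormone alpha subunit and the most abundant gene of the list, was at 581, 3.25 and 406 CPM for controls against 467, 395 and 372 CPM for mutants. *Tshb*, the thyrotropin beta subunit, was at 140.1, 1.92 and 70.5 CPM for controls against 89.2, 104 and 73.6 CPM for mutants, and *Pitx1*, a pituitary transcription factor, was at 0.232 CPM in control replicate 2 and at 10.6 to 16.7 CPM in the other samples. No read of *Prl* or *Gh* was counted in control replicate 2, which allows a level of up to 0.174 CPM (3 counts, counting error only). *Prl* was also at 0 in mutant replicate 3, and *Gh* in control replicate 1 and mutant replicates 1 and 2.

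*Plvap*, which marks the fenestrated capillaries of the median eminence, was also lowest in that library, at 9.10, 2.32 and 7.95 CPM for controls against 10.4, 8.79 and 8.92 CPM for mutants. This was not particular to *Plvap* among endothelial and mural markers. *Pecam1*, *Tek*, *Cdh5*, *Pdgfrb*, *Rgs5* and *Kcnj8* were lowest there too, while *Cldn5*, *Flt1*, *Vtn* and *Acta2* were lowest in a mutant sample. The 11 endothelial and mural markers as a whole summed to 258, 172 and 222 CPM for controls against 236, 235 and 239.6 CPM for mutants, with *Rgs5* as the most abundant. The 7 fibroblast and meningeal markers summed to 403, 188 and 385 CPM for controls against 238, 424 and 323 CPM for mutants, and *Dcn*, their most abundant gene, was at 187, 33.4 and 201 CPM for controls against 88.8, 198 and 124 CPM for mutants. *Lum*, *Col1a1* and *Col3a1* were also lowest in control replicate 2, but not every gene of the list was. *Pdgfra* was at 98.3, 105 and 79.0 CPM for controls against 86.6, 98.5 and 106 CPM for mutants. *Slc6a13* was at 3.41, 8.19 and 3.44 CPM for controls against 0.824, 8.35 and 2.86 CPM for mutants. Among the controls, these genes were highest in control replicate 2. The sums of both lists were lowest in control replicate 2. The 11 astrocyte markers went the other way, with sums of 3641, 6529 and 4763 CPM for controls against 3934, 4524 and 5835 CPM for mutants and *Slc1a2*, the most abundant, at 2609, 4923 and 3586 CPM for controls against 2779.6, 3332 and 4358 CPM for mutants. Control replicate 2 had the highest astrocyte sum. The study's methods describe a tissue block located by the optic chiasm, but the labels do not record the extent of the dissection in each sample. The part of the dissection in the tanycyte values was not tested. Fold changes below are therefore given with all 6 samples and without control replicate 2, an alternative whose use in the text was decided after seeing the data.

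The tanycyte genes moved with this library too. Control replicate 2 was the lowest of the 6 samples for 7 of the 9 genes, *Rax*, *Vim*, *Nes*, *Lhx2*, *Dio2*, *Col23a1* and *Scn7a*, and it was the lowest for 21.7% of all tested genes. *Gpr50* was lowest in mutant replicate 3 and *Crym* in control replicate 1. The levels of the 9 genes summed to 2388, 1141 and 1633 CPM for controls against 2801, 2282 and 2319 CPM for mutants, with *Scn7a* as the most abundant. With each gene weighted alike, the mean of log2 levels centred per gene was 0.20, -0.61 and -0.10 for controls. For mutants it was 0.34, 0.18 and -0.0083. The lowest mutant sum lay between the sums of control replicates 1 and 3. Control replicate 1 and mutant replicate 1 had the highest sums. They also had the lowest sums of the ventromedial nucleus markers given below, 89.2 and 109 CPM, and of the astrocyte markers, 3641 and 3934 CPM. The part of the tissue taken in this was not tested. Fewer tanycytes in a dissected sample and less RNA per tanycyte cannot be told apart in bulk tissue.

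In edgeR's test 0 of the 9 tanycyte genes passed the threshold, which 0.118% of all tested genes did. Unadjusted p-values were under 0.05 for 2 of the 9, *Dio2* and *Vim*, against 8.85% of all tested genes. DESeq2, run as an alternative, called 1 of the 9, *Dio2*, against 1.27% of the genes it gave an adjusted p-value, and limma voom called 0. Levels in all 3 mutants were above all 3 controls for *Dio2* and *Vim* and below for none of the 9, where 7.88% of all tested genes were separated upward and 7.88% downward. Of the 9 fold changes 7 were positive and 2 negative, with a median of 0.28 beside 0.0035 over all tested genes. Without control replicate 2, 6 were positive and 3 negative, and the median was 0.11 beside 0.0063. edgeR then called 0 of the 9 (0.296% of all tested genes), with unadjusted p-values under 0.05 for 4, *Dio2*, *Vim*, *Rax* and *Gpr50* (7.73% of all tested genes), and DESeq2 again called *Dio2* (1.07% of its genes).

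*Rax* encodes a retina and anterior neural fold homeobox protein that defines tanycytes in the adult hypothalamus. It lies on chromosome 18, 66094293 to 66098743, minus strand of the NCBIM37 assembly, the assembly of every member's position. *Rax* was at 19.3, 8.72 and 14.7 CPM for controls against 14.1, 13.4 and 10.6 CPM for mutants. Control replicates 1 and 2 were the highest and the lowest of all 6 samples, and the 3 mutants lay between them. The log2 fold change was -0.16 (SE 0.27, adjusted *p* = 0.910, edgeR), with a 95% interval of -0.77 to 0.45. It became -0.42 (SE 0.18, adjusted *p* = 0.615, edgeR) without control replicate 2, and without control replicate 1 its sign turned, to 0.12.

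*Lhx2*, a LIM homeobox gene needed for tanycyte identity (chromosome 2, 38194801 to 38225253, plus strand), was at 63.2, 34.9 and 44.3 CPM for controls against 57.9, 57.1 and 43.7 CPM for mutants. Its groups overlapped in the same way, with control replicate 1 highest and control replicate 2 lowest. Its fold change on the log2 scale was 0.16 (SE 0.22, adjusted *p* = 0.889, edgeR) and -0.025 without control replicate 2 (SE 0.18, adjusted *p* = 0.993, edgeR). In the annotation *Rax* overlaps *Raxos1* and *Lhx2* overlaps *Gm13584*, both on the opposite strand, and whether the counting used strand was not stated, so reads of a gene and of its antisense partner cannot be told apart. The same holds for *Dio2* and *Gm16738*.

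**Figure D1:**
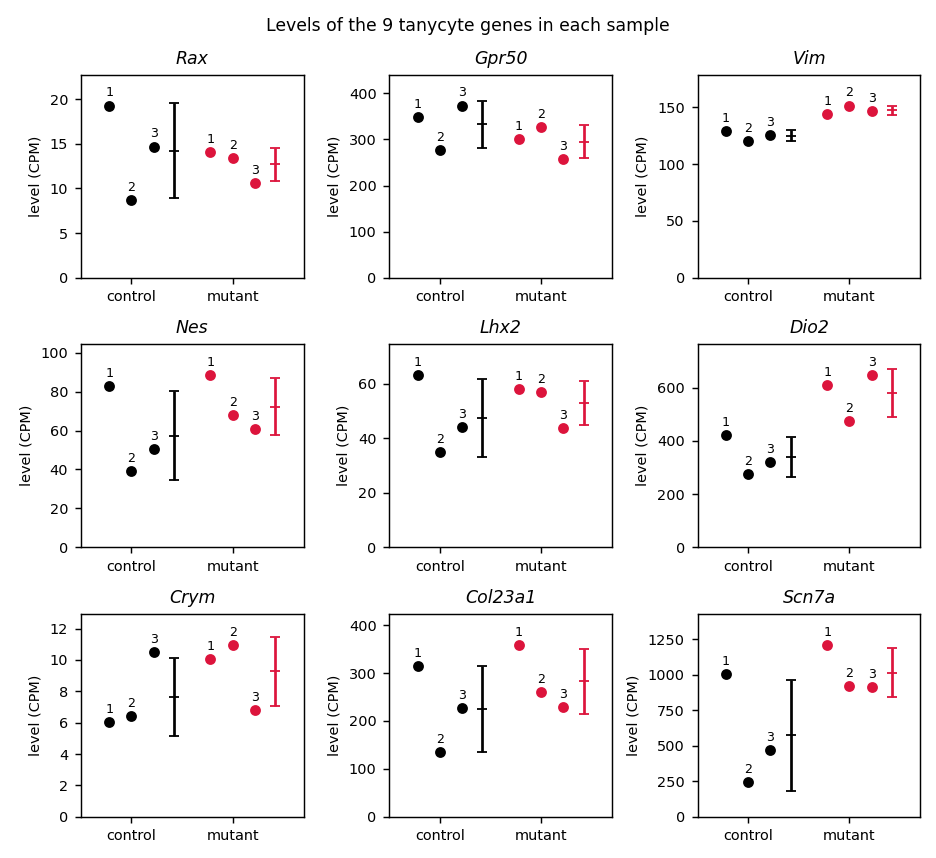
Levels in CPM of the 9 tanycyte genes (vertical axes from 0) in the 3 control (black) and 3 mutant (red) samples, numbered by replicate, with the mean and SD of each genotype beside them. Only for *Vim* and *Dio2* do the 3 mutants lie above the 3 controls, and control replicate 2 is the lowest sample in 7 of the 9 panels.

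The intermediate filament genes give tanycytes their radial glial character. *Vim*, vimentin (chromosome 2, 13495554 to 13504453, plus strand), was at 129, 120.2 and 126 CPM for controls against 144, 151 and 147 CPM for mutants. All 3 mutants were above all 3 controls, and the spread within a genotype was small, with 1.08-fold between the highest and lowest control and 1.05-fold between the mutants. The log2 fold change was 0.24 (SE 0.074, adjusted *p* = 0.352, edgeR), with an interval of 0.072 to 0.40. DESeq2 gave an adjusted p-value of 0.345. Leaving out control replicate 2 gave 0.21 (SE 0.084, adjusted *p* = 0.583, edgeR). Vimentin is also made by astrocytes, endothelial cells and fibroblasts, so its level in bulk tissue is not that of tanycytes alone.

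*Nes*, nestin (chromosome 3, 87775000 to 87784373, plus strand), was at 82.8, 39.0 and 50.4 CPM for controls against 88.5, 67.8 and 60.6 CPM for mutants. The genotypes overlapped, and the controls differed 2.12-fold among themselves. edgeR's log2 estimate was 0.33 (SE 0.31, adjusted *p* = 0.822, edgeR) and 0.11 (SE 0.26, adjusted *p* = 0.968, edgeR) without control replicate 2.

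Of the 9 genes *Dio2* had the smallest p-value. It encodes type 2 deiodinase, which turns thyroxine into triiodothyronine and which in the mediobasal hypothalamus is made mainly by tanycytes, with a lower level in astrocytes. *Dio2* (chromosome 12, 91962994 to 91976878, minus strand) was at 421, 275 and 321 CPM for controls against 612, 477 and 648 CPM for mutants. The lowest mutant was above the highest control, and the genotype means were 339 ± 74.3 CPM and 579 ± 90.3 CPM (SD, n = 3 each), a fitted ratio of 1.71. The log2 fold change was 0.77 (SE 0.17, adjusted *p* = 0.189, edgeR), with a 95% interval of 0.38 to 1.17. DESeq2 gave an adjusted p-value of 0.000417. With control replicate 2 left out the log2 fold change was 0.64 (SE 0.16, adjusted *p* = 0.270, edgeR), and the adjusted p-value from DESeq2 was 0.00572.

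*Crym* encodes mu-crystallin, which binds triiodothyronine in the cytosol (chromosome 7, 127329894 to 127345625, minus strand). It was at 6.02, 6.45 and 10.5 CPM for controls against 10.1, 11.0 and 6.79 CPM for mutants. The samples fell into no order by genotype, with control replicate 3 next to mutant replicates 1 and 2. The difference on the log2 scale was 0.28 (SE 0.26, adjusted *p* = 0.816, edgeR) and 0.17 (SE 0.28, adjusted *p* = 0.942, edgeR) without control replicate 2. *Crym* is also expressed in neurons, and it had the lowest count of the 9 genes, from 90 to 175 reads a sample.

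Of the genes for proteins at the cell surface, *Gpr50* encodes an orphan receptor related to the melatonin receptors. *Gpr50* (chromosome X, 68916842 to 68922432, plus strand) was at 348, 276 and 374 CPM for controls against 302, 327 and 257 CPM for mutants. The genotypes overlapped, with mutant replicate 3 lowest and control replicate 3 highest. On the log2 scale the mutants differed by -0.17 (SE 0.13, adjusted *p* = 0.758, edgeR), with an interval of -0.46 to 0.11. The estimate was -0.29 (SE 0.11, adjusted *p* = 0.528, edgeR) without control replicate 2.

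*Col23a1*, a transmembrane collagen found in tanycytes of the ventricular floor (chromosome 11, 51103422 to 51397420, plus strand), was at 314, 134 and 226 CPM for controls against 359, 259 and 229 CPM for mutants. Control replicate 2 was lowest and the other controls lay within or next to the range of the mutants. The fitted log2 difference was 0.33 (SE 0.36, adjusted *p* = 0.856, edgeR). It was 0.064 without control replicate 2 (SE 0.24, adjusted *p* = 0.986, edgeR).

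*Scn7a* encodes a sodium channel gated by the sodium concentration outside the cell, which glia of the circumventricular organs use to sense it. *Scn7a* (chromosome 2, 66511482 to 66622971, minus strand) was at 1005, 246 and 467 CPM for controls against 1213, 918 and 916 CPM for mutants. Its controls differed 4.08-fold among themselves, a spread larger than that of 97.2% of all tested genes, while the mutants differed 1.32-fold. Control replicate 1 was above mutant replicates 2 and 3, so the genotypes overlapped. The log2 fold change of 0.83 was the largest of the 9 but also had the largest standard error, 0.56 (95% interval -0.65 to 2.31, adjusted *p* = 0.757, edgeR). It was 0.46 (SE 0.39, adjusted *p* = 0.864, edgeR) without control replicate 2, and without control replicate 1 it was 1.51.

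**Figure D2:**
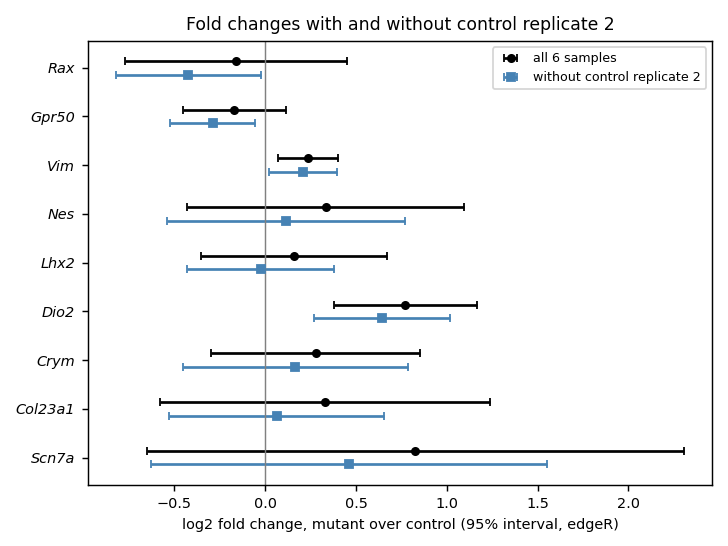
Log2 fold changes, mutant over control, of the 9 tanycyte genes with 95% intervals from edgeR (horizontal axis), with all 6 samples (black circles) and without control replicate 2 (blue squares). With all 6 samples the intervals of *Vim* and *Dio2* lie above 0, and they do so without control replicate 2, where those of *Rax* and *Gpr50* lie below 0.

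The spread among controls was wide for several of these genes. The ratio of the highest to the lowest control was 2.34 for *Col23a1*, 2.21 for *Rax* and 1.81 for *Lhx2*, where the median over all tested genes was 1.25. Among the mutants the same ratios were 1.57, 1.33 and 1.33, with a median over all tested genes of 1.23. For 8 of the 9 genes, all but *Crym*, control replicate 2 was below control replicate 1. Estimates moved with the other controls as well. Without control replicate 1 the log2 fold changes of *Nes*, *Lhx2* and *Col23a1* were 0.69, 0.42 and 0.65, and without control replicate 3 that of *Crym* was 0.57.

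To compare one gene with another, levels were divided by the length of the longest annotated transcript. In CPM per kilobase, as mean and SD over the 6 samples, *Scn7a* was at 108 ± 49.4, *Gpr50* at 102 ± 14.3 and *Dio2* at 78.9 ± 25.9. *Vim* followed at 62.1 ± 5.82, *Col23a1* at 44.8 ± 13.8 and *Lhx2* at 21.9 ± 4.74. *Nes* was at 10.6 ± 3.08, *Rax* at 8.07 ± 2.19 and *Crym* at 3.16 ± 0.850. Neighbours in this order from *Scn7a* to *Vim*, and *Nes* and *Rax*, differed by less than the larger of their SDs, and the other neighbours differed by more. The order at the top was not that of each genotype. Among the controls *Gpr50* was highest, at 108 ± 16.4 CPM per kilobase (SD, n = 3), before *Scn7a* at 78.1 ± 53.2 and *Dio2* at 58.3 ± 12.8. Among the mutants *Scn7a* was highest, at 138 ± 23.3, before *Dio2* at 99.6 ± 15.5 and *Gpr50* at 96.2 ± 11.6. With the mean transcript length in place of the longest, *Gpr50* was highest, at 173, and *Col23a1*, at 82.1, came above *Dio2*. *Vim* then moved from rank 4 to rank 2, at 108, level with *Scn7a*.

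The tested genes most like *Rax* across the 6 samples were found by the root mean square difference between log2 levels centred on each gene's mean. They were *Polg2* (0.10), *Tshr* (0.11), *Angptl1* (0.11), *Ager* (0.12) and *Snora23* (0.13), where the median over all tested genes was 0.40. All but *Tshr* had levels under 6 CPM, and 3 of these 4 overlap other genes in the annotation, *Polg2* with *Gm885*, *Angptl1* with *Ralgps2* and the small RNA gene *Snora23* with *Ipo7*, so their reads cannot be assigned with certainty. *Tshr*, the thyrotropin receptor, was at 112, 57.7 and 97.2 CPM for controls against 90.7, 88.4 and 80.4 CPM for mutants, highest in control replicate 1 and lowest in control replicate 2 as *Rax* was. Of the other members *Lhx2* came nearest to *Rax*, at rank 54, followed by *Gpr50* at 299, *Col23a1* at 669 and *Nes* at 926. *Vim* was at rank 5161, *Crym* at 10567, *Dio2* at 12560 and *Scn7a* at 14037. *Crym*, *Dio2* and *Scn7a* were farther from *Rax* than the median tested gene, with differences of 0.46, 0.53 and 0.65.

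A further 15 genes known from tanycytes were listed, with earlier results of these data known, and 14 were counted and tested. Their counts beside the shares of all tested genes are therefore description only. In edgeR's test 0 of the 14 passed (0.118% of all tested genes) and 6 had an unadjusted p-value under 0.05 (8.85% of all tested genes). DESeq2 called 2, *Vcan* and *Tgfb2*, against 1.27% of the genes it gave an adjusted p-value. Fold changes were positive for 12 and negative for 2, with a median of 0.33. Without control replicate 2 they were positive for 10 and negative for 4, with a median of 0.21. Unadjusted p-values from edgeR were then under 0.05 for 3, against 7.73% of all tested genes. Control replicate 2 was the lowest sample for 8 of the 14. The list summed to 1753, 1435 and 1554 CPM for controls against 1817, 1739 and 1916 CPM for mutants. *Slc1a3*, a glutamate transporter shared with astrocytes, was the most abundant, at 651, 727 and 646 CPM for controls against 695, 699 and 858 CPM for mutants.

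*Vcan*, the matrix proteoglycan versican, which other cells make too, had the most negative fold change of the list. It was at 261, 168 and 248 CPM for controls against 144, 146 and 151 CPM for mutants. All 3 mutants were below all 3 controls, and the log2 fold change was -0.62 (SE 0.15, adjusted *p* = 0.233, edgeR), with an adjusted p-value of 0.00442 from DESeq2. Without control replicate 2, the lowest control, *Vcan* passed edgeR's threshold and was lower by the larger log2 fold change of -0.79 (SE 0.083, adjusted *p* = 0.00170, edgeR). *Tgfb2*, a growth factor gene named after its values were seen, was at 56.7, 50.7 and 75.2 CPM for controls against 79.8, 94.4 and 112 CPM for mutants, with all mutants above all controls. Its log2 fold change was 0.65 (SE 0.17, adjusted *p* = 0.264, edgeR), DESeq2 gave an adjusted p-value of 0.0135, and without control replicate 2 the log2 fold change was 0.53 (SE 0.16, adjusted *p* = 0.411, edgeR), with 0.124 from DESeq2. *Col25a1*, a transmembrane collagen, was at 397, 182 and 224 CPM for controls against 476, 377 and 389 CPM for mutants and *Sox9*, a glial transcription factor, at 119, 107 and 122 CPM for controls against 114, 146 and 137 CPM for mutants. Both overlapped between genotypes, with log2 fold changes of 0.63 and 0.19 (adjusted *p* = 0.643 and 0.647, edgeR), and 0.41 and 0.13 without control replicate 2 (adjusted *p* = 0.816 and 0.843, edgeR).

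**Figure D3:**
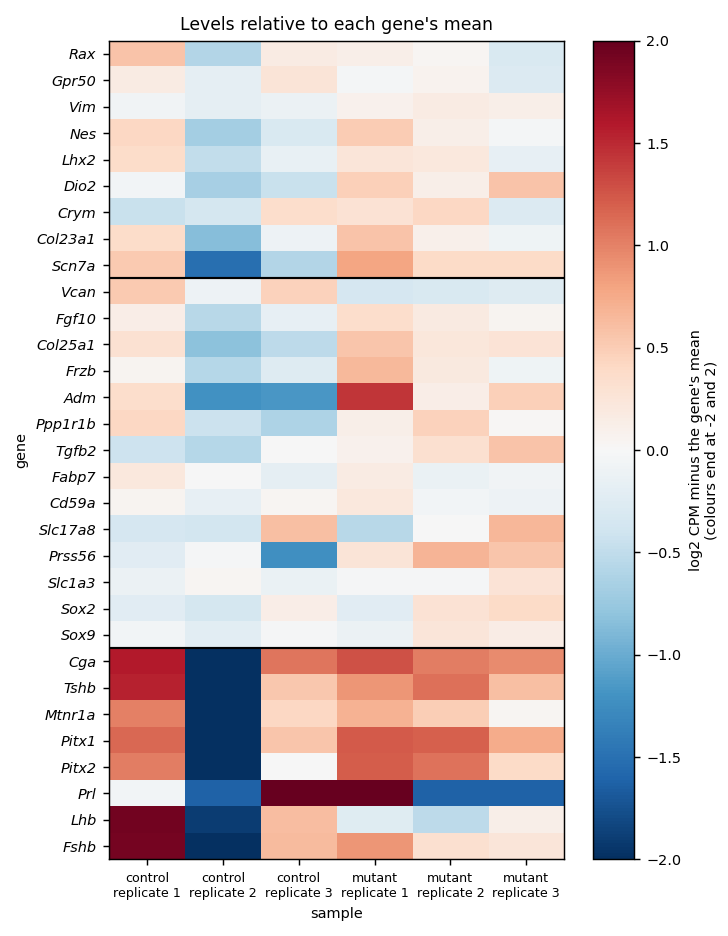
Log2 CPM minus each gene's mean over the 6 samples (colour, cut at -2 and 2, with levels under 3 counts drawn at 3 counts in the smallest library) for the 9 tanycyte genes (top), 14 other tanycyte markers (middle) and 8 pituitary and pars tuberalis markers (bottom), with samples along the horizontal axis. Control replicate 2 is pale to dark blue in 8 of the 8 bottom rows and is the lowest sample in 7 of the 9 top rows.

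The list for thyroid hormone handling held 17 further genes, all counted, of which 16 were tested. *Dio1*, for type 1 deiodinase, had 1 read in the 6 samples together. *Dio3*, for type 3 deiodinase, which inactivates the hormone, had 5 to 16 reads a sample, at 0.335, 0.523 and 0.358 CPM for controls against 1.32, 0.816 and 1.06 CPM for mutants. All mutants were above all controls, and the log2 fold change was 1.35 (SE 0.46, adjusted *p* = 0.394, edgeR), and 1.59 (SE 0.59, adjusted *p* = 0.528, edgeR) without control replicate 2. In edgeR's test 0 of the 16 passed (0.118% of all tested genes) and 5 had an unadjusted p-value under 0.05 (8.85% of all tested genes). DESeq2 called 2, *Thrb* and *Trhde*, against 1.27% of its genes. Of the fold changes 6 were positive and 10 negative, with a median of -0.10, and -0.036 without control replicate 2. All mutants were above all controls for 3 of the 16 and below for 3, where 7.88% of all tested genes were separated upward and 7.88% downward.

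*Thrb*, a thyroid hormone receptor, was at 148, 142 and 151 CPM for controls against 106, 117 and 105 CPM for mutants. Its genotypes did not overlap, and the 3 samples of each lay close together. On the log2 scale the fold change was -0.43 (SE 0.079, adjusted *p* = 0.0706, edgeR), short of the threshold, and DESeq2 gave an adjusted p-value of 0.00135. Without control replicate 2 the values were -0.45 (SE 0.088, adjusted *p* = 0.0641, edgeR) and 0.00410 from DESeq2. The other receptor gene, *Thra*, was at 69.9, 82.7 and 76.5 CPM for controls against 59.0, 82.1 and 73.5 CPM for mutants (log2 fold change -0.092, adjusted *p* = 0.882, edgeR), with -0.030 (adjusted *p* = 0.988, edgeR) without control replicate 2.

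*Trhde* encodes the ectoenzyme that degrades thyrotropin-releasing hormone, which tanycytes carry in the median eminence, and it was named after its values were seen. It was at 72.2, 44.9 and 45.8 CPM for controls against 80.5, 87.7 and 84.8 CPM for mutants. The mutants were above all controls, though control replicate 1 was nearer to them than to the other controls. Its log2 estimate was 0.64 (SE 0.17, adjusted *p* = 0.303, edgeR), with 0.0283 from DESeq2, and without control replicate 2 it was 0.51 (SE 0.18, adjusted *p* = 0.516, edgeR), with 0.216 from DESeq2. In the annotation *4930473D10Rik* and *Gm15723* overlap *Trhde*, and *Gm16318* and *Gm4117* overlap *Vcan*, on the opposite strand, with the limit given for *Rax*. It also holds for *Thra* (with *Nr1d1*), *Ttr* (*Gm16090*), *Six3* (*Six3os1*), *Gfap* (*Gm17536*), *Slc1a2* (*Gm13872*), *Plvap* (*Gtpbp3*), *Lhb* (*Ruvbl2*) and *Cga* (*2410114N07Rik*), and small RNA genes overlap *Esr1*, *Thrb*, *Tgfb2* and *Col25a1*. *Col1a1* (*Gm17329*) and *Slc6a13* (*AC153982.1*) have the same limit.

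*Ttr*, which carries thyroxine and is made in large amounts by the choroid plexus, was the most abundant gene of the list and varied widely within both genotypes, at 204, 16.7 and 258 CPM for controls against 84.3, 390.4 and 44.8 CPM for mutants (log2 fold change 0.13, adjusted *p* = 0.993, edgeR). Control replicate 2 had its lowest level, and without it the sign turned, to -0.41 (SE 1.15, adjusted *p* = 0.979, edgeR). *Tshr* had a log2 fold change of -0.041 (SE 0.23, adjusted *p* = 0.982, edgeR), and -0.28 (SE 0.10, adjusted *p* = 0.516, edgeR) without control replicate 2.

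The 10 progenitor and Notch genes, which tanycytes share with neural stem cells, had 0 calls in edgeR's test and 0 in DESeq2. They had 2 unadjusted p-values under 0.05 in edgeR's test, against 8.85% of all tested genes. Of them 8 had positive and 2 negative fold changes, with a median of 0.15. Without control replicate 2 the median was 0.11, with 1 unadjusted p-value under 0.05 in edgeR's test (7.73% of all tested genes). *Notch2*, the most abundant, was at 167, 132 and 165 CPM for controls against 178, 173 and 172 CPM for mutants, and *Six3*, a homeobox gene of the ventral forebrain, at 132, 128 and 105 CPM for controls against 164, 141 and 146 CPM for mutants. All mutants were above all controls for 3 of the 10, where 7.88% of all tested genes were separated upward.

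Cells that border the tanycytes were read from their own lists. For these and the lists that follow, the shares over all tested genes were 0.118% called by edgeR and 1.27% by DESeq2. Unadjusted p-values from edgeR were under 0.05 for 8.85%, and 7.88% were separated upward and 7.88% downward. Without control replicate 2 the shares were 0.296% (edgeR), 1.07% (DESeq2) and 7.73% (unadjusted, edgeR). The 11 ependymal markers counted, of 12 listed, summed to 125, 142 and 185 CPM for controls against 139, 175 and 204 CPM for mutants, with *Dnah5* as the most abundant, a median log2 fold change of 0.21 (0.25 without control replicate 2), 0 calls by edgeR and DESeq2 and 0 unadjusted p-values under 0.05. The astrocyte markers also had 0 calls by either tool and 0 unadjusted p-values under 0.05, and their median log2 fold change was -0.044, with 4 positive and 7 negative. With all 6 samples neither list separated the genotypes in any gene. Without control replicate 2, which had the highest astrocyte sum, the astrocyte median was 0.18, with 9 positive and 2 negative, 0 calls by edgeR and 3 unadjusted p-values under 0.05, of *Gfap*, *Aldoc* and *Agt*. DESeq2 then called 1, *Gfap*, for an intermediate filament of astrocytes, with a log2 fold change of 0.92 (SE 0.16, adjusted *p* = 0.0621, edgeR) and an adjusted p-value of 9.44e-06 from DESeq2. *Gfap* was at 57.5, 152 and 56.5 CPM for controls against 128, 85.7 and 111 CPM for mutants, with a log2 fold change of 0.28 (SE 0.48, adjusted *p* = 0.915, edgeR) over all 6 samples.

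Oligodendrocyte markers separated the genotypes as *Dio2* and *Vim* did. All 9 were higher in every mutant than in every control, with a median log2 fold change of 0.95 and sums of 779, 1217 and 648 CPM for controls against 1743, 1648 and 1568 CPM for mutants. edgeR called 1 of the 9, *Cldn11*, a tight junction protein of myelin, and DESeq2 called 4. *Cldn11* was at 7.90, 11.0 and 7.38 CPM for controls against 18.8, 22.2 and 22.6 CPM for mutants (log2 fold change 1.27, SE 0.17, adjusted *p* = 0.0313, edgeR). Without control replicate 2, edgeR called 7 of the 9, the median was 1.24 and the log2 fold change of *Cldn11* was 1.47 (SE 0.16, adjusted *p* = 0.00237, edgeR). edgeR kept the call of *Cldn11* without mutant replicate 1 (adjusted *p* = 0.0361) and lost it without control replicate 1 or 3 and without mutant replicate 2 or 3 (adjusted *p* from 0.0758 to 0.151 in these 4 fits), with log2 fold changes of 1.16 to 1.47 over the 6 fits that left out one sample. Of the 8 microglia markers 4 were above all controls in every mutant, with 0 calls by edgeR, 4 unadjusted p-values under 0.05, 2 calls by DESeq2 and sums of 252, 254 and 249.6 CPM for controls against 327, 312 and 319 CPM for mutants. Their median log2 fold change was 0.30, and 0.37 without control replicate 2. None of the oligodendrocyte and microglia markers was at 0 in any sample. The part of oligodendrocytes and microglia, or of the tissue taken, in the values of *Dio2* and *Vim* was not tested.

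The remaining lists describe the neurons around the ventricle, the vessels, the meninges and the pituitary. The 5 ventromedial nucleus markers summed to 89.2, 204 and 144 CPM for controls against 109, 249.5 and 311 CPM for mutants, with *Adcyap1* as the most abundant and a median log2 fold change of 0.92. The sums were lowest in control replicate 1 and mutant replicate 1. *Fezf1* was at 1.14, 32.7 and 24.1 CPM for controls against 9.89, 47.2 and 52.2 CPM for mutants. *Cbln1* was at 11.6, 49.0 and 32.1 CPM for controls against 18.3, 75.3 and 77.6 CPM for mutants. The study's methods name the absence of *Tac1* and *Cbln1* as a check of the dissection. The list had 0 calls by edgeR and DESeq2 and 1 unadjusted p-value under 0.05, of the 1 gene with a negative fold change, *Tac1*. *Tac1*, for the precursor of substance P, was at 50.8, 59.9 and 40.1 CPM for controls against 36.9, 28.1 and 38.5 CPM for mutants, with all mutants below all controls and a log2 fold change of -0.55 (SE 0.17, adjusted *p* = 0.355, edgeR). The list's median without control replicate 2 was 1.40, with 0 calls by either tool, and *Tac1*, at -0.40 (SE 0.16, adjusted *p* = 0.579, edgeR), again had the 1 unadjusted p-value under 0.05. The 10 arcuate neuron markers summed to 1112, 1107 and 1038 CPM for controls against 1698, 1171 and 1278 CPM for mutants, with *Cartpt* as the most abundant, a median of 0.34, 0 calls by edgeR, 3 unadjusted p-values under 0.05 and 3 calls by DESeq2. Their median without control replicate 2 was 0.43, with 0 calls by edgeR, 4 unadjusted p-values under 0.05 and 1 call by DESeq2. The endothelial and mural list had 0 calls by either tool and 1 unadjusted p-value under 0.05, with a median of 0.12, and the same counts with a median of 0.017 without control replicate 2. The fibroblast and meningeal list and the 8 tested pituitary markers had 0 calls by either tool and 0 unadjusted p-values under 0.05, with medians of 0.041 and 0.27. Both medians turned negative without control replicate 2, where the sums of both lists were lowest. That of the fibroblast and meningeal list was -0.21, with 2 positive and 5 negative and 0 unadjusted p-values under 0.05, and that of the pituitary markers -0.29, with 2 positive and 6 negative and 2 unadjusted p-values under 0.05, of *Lhb* and *Fshb*. Neither tool called a gene of these lists then.

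Promoters of the members were read from RefSeq (GRCm38.p6, a later build than that of the gene positions above) for 7 of the 9 genes, with 8 start sites. *Rax* and *Crym* had no entry. Over the 250 bases before each start, 3 motifs were searched on both strands, the half-site AGGTCA that estrogen and thyroid hormone receptors share, the homeodomain motif TAATTA, and the cyclic AMP response element TGACGTCA. The last was chosen after the *Dio2* promoter had been read, because thyrotropin acts through cyclic AMP, and its end shares the letters GTCA with the half-site. Among 32851 promoters, 14.0% held the half-site, 4.84% the homeodomain motif and 1.55% the cyclic AMP response element.

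The promoter of *Dio2* held 1 cyclic AMP response element (capitals), 95 bases before the start, and neither of the other motifs. As this motif was chosen after that promoter had been read, the match is description only. That of *Col23a1* held 1 half-site (capitals), 215 bases before the start, and none of the others. The windows are chr12:90739039-90739288 on the minus strand for *Dio2* and chr11:51289670-51289919 on the plus strand for *Col23a1*, each printed 5′ to 3′ and upstream of the gene. A match describes the letters and shows no binding. The other windows, of *Gpr50*, *Vim*, *Nes*, *Lhx2* and *Scn7a*, held none of the 3.
Dio2: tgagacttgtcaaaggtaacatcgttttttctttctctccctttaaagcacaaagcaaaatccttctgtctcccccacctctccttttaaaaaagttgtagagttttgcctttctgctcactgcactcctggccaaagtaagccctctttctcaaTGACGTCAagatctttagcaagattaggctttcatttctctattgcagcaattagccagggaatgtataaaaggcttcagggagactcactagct
Col23a1: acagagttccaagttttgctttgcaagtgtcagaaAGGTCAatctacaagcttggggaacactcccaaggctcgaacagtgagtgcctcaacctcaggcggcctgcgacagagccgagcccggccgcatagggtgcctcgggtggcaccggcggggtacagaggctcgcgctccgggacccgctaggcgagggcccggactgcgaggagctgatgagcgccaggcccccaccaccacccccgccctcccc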

How the data were processed

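RNA from ARC of 3 control and 3 mutant females was sequenced. According to the submitters' processing notes and the study's methods, the authors mapped reads with TopHat2 2.1.0 and counted them on genes with HTSeq 0.6, and the notes also name DESeq2 1.14.1. The deposited values are raw counts for 24015 gene symbols per sample, without normalization. The notes name the build mm9 and the study's methods NCBI37/mm10. Gene positions and lengths here come from the GENCODE annotation of NCBIM37, the assembly of mm9, matched by symbol.

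Samples were grouped by the genotype in their labels. Counts were tested with edgeR 4.0.16 in R 4.3.3 (quasi-likelihood test with robust dispersions, TMM, default filter), with Benjamini-Hochberg adjustment over 15236 genes, and with limma 3.58.1 (voom) and DESeq2 1.42.0 as alternatives. The fits were tested on simulated data. Other alternatives were RLE normalization, other minimum counts (1 in any or 10 in all samples), a replicate block, omission of each sample, plain CPM and the mean transcript length. The members and lists were chosen with earlier results of these data known. The rule for names took all members, *Esr1*, *Nkx2-1*, the 5 genes nearest to *Rax* (log2 CPM, prior count 2) and, per list, genes past the threshold and up to 4 others with the highest mean level, with genes at 0 in lists of other cell types. *Tgfb2*, *Trhde*, *Thra*, *Dio1*, *Dio3*, *Plvap*, *Gfap*, *Agt*, *Lhb* and the genes called in single alternatives were named after their values were seen. So were *Lum*, *Col1a1*, *Col3a1*, *Pdgfra*, *Slc6a13*, *Fezf1*, *Cbln1* and the endothelial and mural markers other than *Rgs5*. Some genes of the lists are not reported here by name.

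A level of 3 counts was 0.174 to 0.247 CPM, a floor that covers counting error only. Between sample pairs, chi-square divided by its degrees of freedom was 6.90 to 31.2, so no pair was a copy of the same library. This sets separate samples against counting noise alone, and nothing else was drawn from it.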

Additional observations from a re-analysis of the deposited data

How the results depend on the processing

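Of 117 member fold changes under other settings, 111 kept their direction and their side of the threshold, 3 passed it, all of *Dio2*, and 3 changed sign, and the 18 genotype means moved by less than 1 SD with plain CPM. The reversals were *Rax* (range -0.42 to 0.12 over the fits that left out one sample), *Lhx2* (-0.025 to 0.42) and *Lhx2* in DESeq2 without control replicate 2 (-0.028), a setting chosen after seeing the data. *Dio2* ran from 0.64 to 0.96 with one sample left out, with adjusted p-values of 0.0514 to 0.482 from edgeR, and *Vim* from 0.21 to 0.26. limma voom and RLE factors gave 20 and 18 calls over 15236 tested genes, against 18 in the main fit. The stricter filter of 10 counts per sample gave 20 calls over 14072 tested genes. DESeq2 called 191 of the 15079 genes it gave an adjusted p-value. These held 1 tanycyte gene and 13 genes of the other lists, among them 2 other tanycyte markers and 2 thyroid hormone genes. Without control replicate 2 it called 151 of 14147 genes, 1 of them a tanycyte gene. A minimum of 1 count in any sample gave 106 of 22495 tested genes, 5 of them of the other lists, which include 1 thyroid hormone gene, *Thrb*. Replicate numbers 1 to 3 recur in both genotypes, but deviations of same-numbered samples correlated at 0.28, 0.047 and -0.0026 across genes, and 3 of the 6 samples correlated best with the sample of their own number, so the numbers were not taken as pairs. With the replicate number as a block, edgeR called 123 of 15236 tested genes. These held 1 tanycyte gene (*Dio2*, log2 fold change 0.78, adjusted *p* = 0.0108) and 9 genes of the other lists, among them 1 other tanycyte marker (*Tgfb2*) and 1 thyroid hormone gene (*Thrb*). Leaving out one sample gave 7 to 46 genes and 0 tanycyte genes. The calls were 46 of 15565 tested genes without control replicate 2, 9 of 15497 without mutant replicate 2 and 7 of 15488 without mutant replicate 3. Of the other lists 0 to 8 genes passed (8 without control replicate 2, 2 without control replicate 1, and 0 without control replicate 3, mutant replicate 2 or mutant replicate 3). Among them were 0 to 1 other tanycyte markers (*Vcan* without control replicate 2 and *Col25a1* without control replicate 1) and 0 to 1 thyroid hormone genes (*Trhde* without control replicate 1). The cause of these changes was not tested. The mean transcript length raised the level per kilobase of 6 members by over 1 SD. With union exon lengths, chosen after seeing the data, the level of *Lhx2* per kilobase was 16.1. With 11792440 or more counts a sample, 3 counts stand for at most 0.247 CPM, under all member levels.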
